A study of Homo sapiens with 6 samples.

Results

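The SLC25 family, read here as every gene whose listed symbol begins with SLC25A, was followed in 6 RNA libraries from SK-Hep1 cells. The rule for members uses the symbol and no measured value. Members numbered 37 of 11593 listed gene symbols, with 78 of 28768 listed transcripts. SK-Hep1 is an established human line, labelled as hepatocellular carcinoma. In 3 libraries, biotinylated probes tiled SNHG10, a long noncoding RNA of the cell, and in 3 control libraries the probes matched LacZ, a gene of bacteria that is absent from human cells. The study used this pull-down (ChIRP) to ask which messenger RNAs come down with SNHG10. No genotype, treatment or time differed between the groups, and all 6 libraries came from the same line. The titles and the design text name the pull-down, while the extraction protocol describes Trizol RNA from collected cells and libraries from total RNA, without a pull-down step. Which fraction was sequenced is therefore not settled by the sources used here.

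Values are FPKM, that is fragments scaled by transcript length and by the library's mapped fragments, as the authors deposited them per transcript, and were summed per gene. Each library is thus scaled by its own reads, and the read depth behind them is unknown. FPKM totals over all listed genes ran from 268794 to 277118 per library. Whether the replicates are separate cultures is not labelled. The spread behind every p-value is that of these libraries and may be technical. Of 12 hepatocyte markers, 2 were listed (CPS1 and SERPINA1), with a sum of 1.04 to 1.72 FPKM in the SNHG10 set and 1.25 to 2.12 in the LacZ set. Biliary markers (3 of 4 listed) summed to 461.6 to 490.6 and 457.2 to 520.2 FPKM, endothelial markers (3 of 9) to 42.4 to 51.2 and 46.5 to 61.9, stellate or fibroblast markers (4 of 6) to 36.8 to 55.8 and 47.6 to 63.2, and leukocyte markers (2 of 6) to 36.8 to 56.1 and 43.1 to 56.5. Most of the biliary sum was KRT19 (394.4 to 448.5 FPKM over the 6 libraries), and most of the leukocyte sum was CD68 (35.3 to 54.4). ENG was the largest part of the endothelial sum (30.7 to 41.8). ACTA2 and COL3A1 made up most of the stellate or fibroblast sum. These sums thus rest on few genes and are not levels of whole classes. In such bulk RNA, fewer cells that hold a transcript and less of it per cell cannot be told apart.

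Most SLC25 proteins are carriers of the mitochondrial inner membrane. These carriers are built from repeated modules of membrane helices around a central binding site. They move metabolites, nucleotides, cofactors or ions between the cytosol and the matrix. Among genes with an SLC25A symbol, the exceptions named below are SLC25A17, a peroxisomal member, and SLC25A46, an outer membrane member. ADP/ATP carriers export the ATP made by respiration and return ADP, the phosphate carrier brings in the phosphate for that ATP, and other members link the citric acid cycle, amino acids, fatty acid oxidation, heme synthesis and iron use to the cytosol. Closely related members often differ in the tissues that use them: SLC25A4 is the ADP/ATP carrier of heart and muscle, SLC25A5 that of dividing cells, and SLC25A6 is found widely.

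Promoter sequences are shown for SLC25A5, SLC25A6 and SLC25A4, sister genes that differed widely in level, and for SLC25A3, the phosphate carrier that was read at the level of the first pair. Each window holds 250 bases before and 50 bases after a RefSeq start (RefSeq, GRCh38.p14, strand of the gene), and capitals mark the TATA box core (TATAA), the CCAAT box core (CCAAT) and the GC box core (GGGCGG) on either strand. The windows lie at chrX:119468194-119468493 (plus strand), chrX:1392064-1392363 (minus strand), chr4:185143016-185143315 (plus strand) and chr12:98593436-98593735 (plus strand).
SLC25A5: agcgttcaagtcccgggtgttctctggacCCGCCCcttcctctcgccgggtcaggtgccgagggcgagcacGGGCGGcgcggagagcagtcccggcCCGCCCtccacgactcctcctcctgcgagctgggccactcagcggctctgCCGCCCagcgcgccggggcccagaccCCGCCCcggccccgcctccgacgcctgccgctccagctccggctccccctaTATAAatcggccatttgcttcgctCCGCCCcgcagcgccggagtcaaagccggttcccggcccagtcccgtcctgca
SLC25A6: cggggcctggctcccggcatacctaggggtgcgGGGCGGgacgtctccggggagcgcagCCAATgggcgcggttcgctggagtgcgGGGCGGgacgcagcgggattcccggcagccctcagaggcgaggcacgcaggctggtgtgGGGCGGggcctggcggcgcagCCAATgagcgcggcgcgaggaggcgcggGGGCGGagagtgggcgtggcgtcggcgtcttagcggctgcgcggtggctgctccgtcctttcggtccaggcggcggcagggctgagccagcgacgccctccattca
SLC25A4: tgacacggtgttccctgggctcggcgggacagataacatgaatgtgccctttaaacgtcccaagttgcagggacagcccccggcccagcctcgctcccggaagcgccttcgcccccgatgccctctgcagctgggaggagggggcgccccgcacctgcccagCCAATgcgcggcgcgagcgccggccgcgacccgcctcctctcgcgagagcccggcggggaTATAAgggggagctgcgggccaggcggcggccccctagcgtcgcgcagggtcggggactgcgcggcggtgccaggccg
SLC25A3: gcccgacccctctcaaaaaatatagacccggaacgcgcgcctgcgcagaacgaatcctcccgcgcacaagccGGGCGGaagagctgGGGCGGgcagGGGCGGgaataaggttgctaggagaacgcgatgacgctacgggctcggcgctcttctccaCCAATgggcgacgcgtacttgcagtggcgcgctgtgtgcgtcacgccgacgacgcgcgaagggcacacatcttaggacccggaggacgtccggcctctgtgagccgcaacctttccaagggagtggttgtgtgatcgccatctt

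The SLC25A5 window held TATAA beginning 27 bases before the start and 6 matches to GGGCGG, 5 of them on the opposite strand. The SLC25A6 window held no TATAA, 2 matches to CCAAT and 4 to GGGCGG. SLC25A4 held TATAA beginning 28 bases before the start, 1 CCAAT and no GGGCGG, and SLC25A3 held 1 CCAAT, 3 GGGCGG and no TATAA. All 4 were rich in CG dinucleotides, with 36 in SLC25A5, 40 in SLC25A6, 36 in SLC25A4 and 36 in SLC25A3. RefSeq windows matched 31 of the 37 members by symbol (40 windows). GGGCGG was present in 27 of these 40 (67.5%), against 56.3% of 22180 windows of protein-coding genes, CCAAT in 18 (45%, against 34.7%) and TATAA in 5 (12.5%, against 16.5%). The median number of CG dinucleotides was 27 in member windows and 21 in windows of protein-coding genes. These are counts of letters in a reference sequence and not measurements of binding.

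Levels within the family spread widely. SLC25A5, SLC25A3 and SLC25A6 averaged 216, 204 and 185 FPKM over the 6 libraries and ranked 162, 178 and 199 among all 11593 genes. Together they held 65.0% to 75.4% of the family's FPKM in each library. The next member, SLC25A39, averaged 40.3 FPKM, so that SLC25A6 was 4.60 times higher, and 28 of the 37 members averaged under 10 FPKM. The median member ranked 6421 among all genes. Of the 37, 8 were listed at 0 in at least 1 library, and all 8 had means under 5 FPKM. A 0 in these files can be a failed estimate, so such members are given by library.

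**Figure D1:**
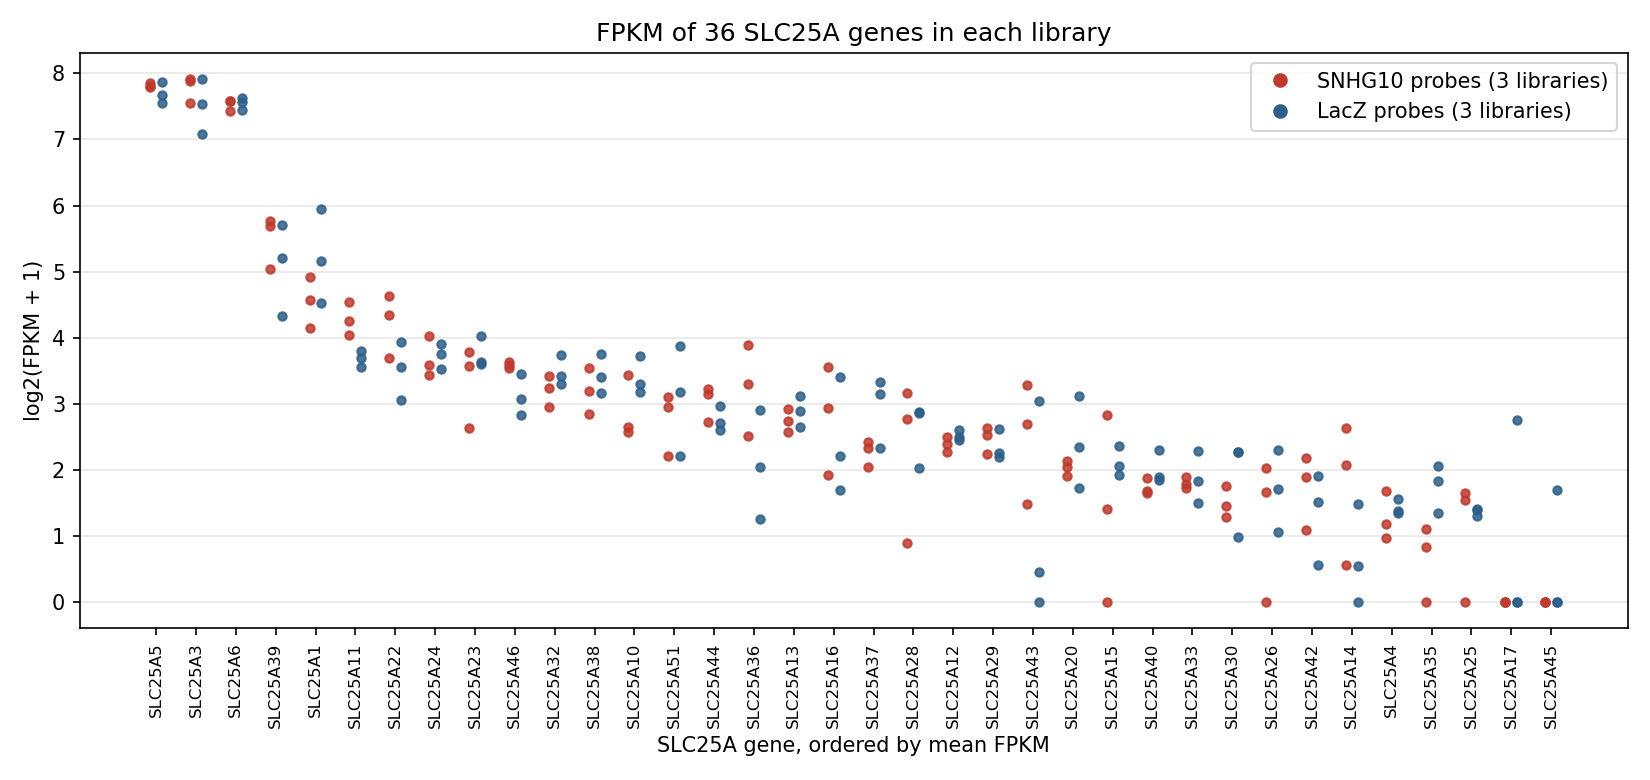
FPKM of 36 of the 37 SLC25A genes in each of the 6 libraries, on a log2(FPKM + 1) axis, with genes ordered by their mean and points coloured by probe set. SLC25A5, SLC25A3 and SLC25A6 stand above all others, and the probe sets fail to overlap only in SLC25A11, SLC25A46 and SLC25A35.

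The ADP/ATP carriers were the most abundant class, with 47.4% of the family's mean FPKM, and SLC25A5 and SLC25A6 were the steadiest members. SLC25A5 (chromosome X, 118602363 to 118605282, plus strand, hg19) read 232, 223 and 221 FPKM in the SNHG10 set and 232, 187 and 202 in the LacZ set. SLC25A6 (chromosome X, 1505045 to 1511617, minus strand, hg19) read 172, 190 and 191 against 196, 190 and 173. The libraries of the probe sets overlapped for both genes, and the coefficient of variation over the 6 libraries was 8.36% for SLC25A5 and 5.42% for SLC25A6. Differences are given as SNHG10 minus LacZ on the log2(FPKM + 1) scale, from limma fitted over all genes that reached 1 FPKM in 3 or more libraries. The difference was 0.13 for SLC25A5, with a 95% interval of -0.13 to 0.38, and -0.01 for SLC25A6 (-0.25 to 0.23), whose sign turned with median-ratio scaling (0.05).

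SLC25A4, the muscle form, read 1.27, 2.20 and 0.947 FPKM in the SNHG10 set and 1.94, 1.58 and 1.54 in the LacZ set. Its mean of 1.58 FPKM was 137 times under that of SLC25A5 and 117 times under that of SLC25A6, in every case a comparison of levels per length. SLC25A5 made up 57.2%, 53.7% and 53.5% of the summed FPKM of the 3 carriers in the SNHG10 set, and 54.0%, 49.4% and 53.6% in the LacZ set. SLC25A6 made up 42.5%, 45.7% and 46.3%, against 45.5%, 50.2% and 45.9%. SLC25A5 thus led SLC25A6 in 5 of the 6 libraries, and SLC25A6 led in LacZ replicate 2. The carriers are close in sequence and SLC25A5 has many processed copies in the genome, so reads could have been split between them, depending on counting rules that no source here states. SLC25A5 also has an antisense neighbour, and without strand their reads cannot be told apart.

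The phosphate carriers were next. SLC25A3 (chromosome 12, 98987369 to 99000157, plus strand, hg19) read 240, 187 and 235 FPKM in the SNHG10 set and 185, 134 and 240 in the LacZ set. SNHG10 replicates 1 and 3 and LacZ replicate 3 lay together at the top, and the probe sets overlapped. The difference was 0.27 ± 0.21 (SE; limma adjusted p = 0.928). It was 0.06 without LacZ replicate 2 and 0.47 without LacZ replicate 3, and 2.61 for the transcript of highest mean alone. The calcium-regulated carriers of ATP-magnesium against phosphate were far lower. SLC25A24 read 9.82, 11.1 and 15.2 FPKM against 13.98, 10.6 and 12.4, and SLC25A23 10.9, 5.19 and 12.7 against 11.1, 15.3 and 11.4. SLC25A25, of the same kind, was listed at 0 in SNHG10 replicate 1 and lay between 1.47 and 2.13 FPKM in the other libraries.

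No SLC25A gene passed the test between the probe sets. Of the 37 members, 35 passed the filter on low values and were tested, and 0 had a limma adjusted p under 0.05, as did 0 of all 10304 genes tested (0.0%). The smallest adjusted p among members was 0.885. At an unadjusted p under 0.05 there were 2 members, SLC25A11 higher and SLC25A35 lower, beside 558 of all genes tested (5.42%; 2.1% higher and 3.32% lower). The libraries of the probe sets did not overlap in 3 of the 35 tested members, against 11.4% of all genes tested; 2 were higher (4.22% of all genes) and 1 lower (7.21%). Left-out libraries moved the count of members under an unadjusted p of 0.05 from 2 to between 0 and 6. The count was 0 without SNHG10 replicate 3 (beside 548 of all genes) and 6 without SNHG10 replicate 2 (beside 579). It was 4 with median-ratio scaling (beside 546). The median difference over the tested members was -0.13, with 14 positive and 21 negative, and over all genes -0.05, with 4458 positive and 5846 negative. With median-ratio scaling, which moved the median of all genes to 0.00 after rounding (-0.00267), members split into 16 positive and 19 negative, with a median of -0.08.

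**Figure D2:**
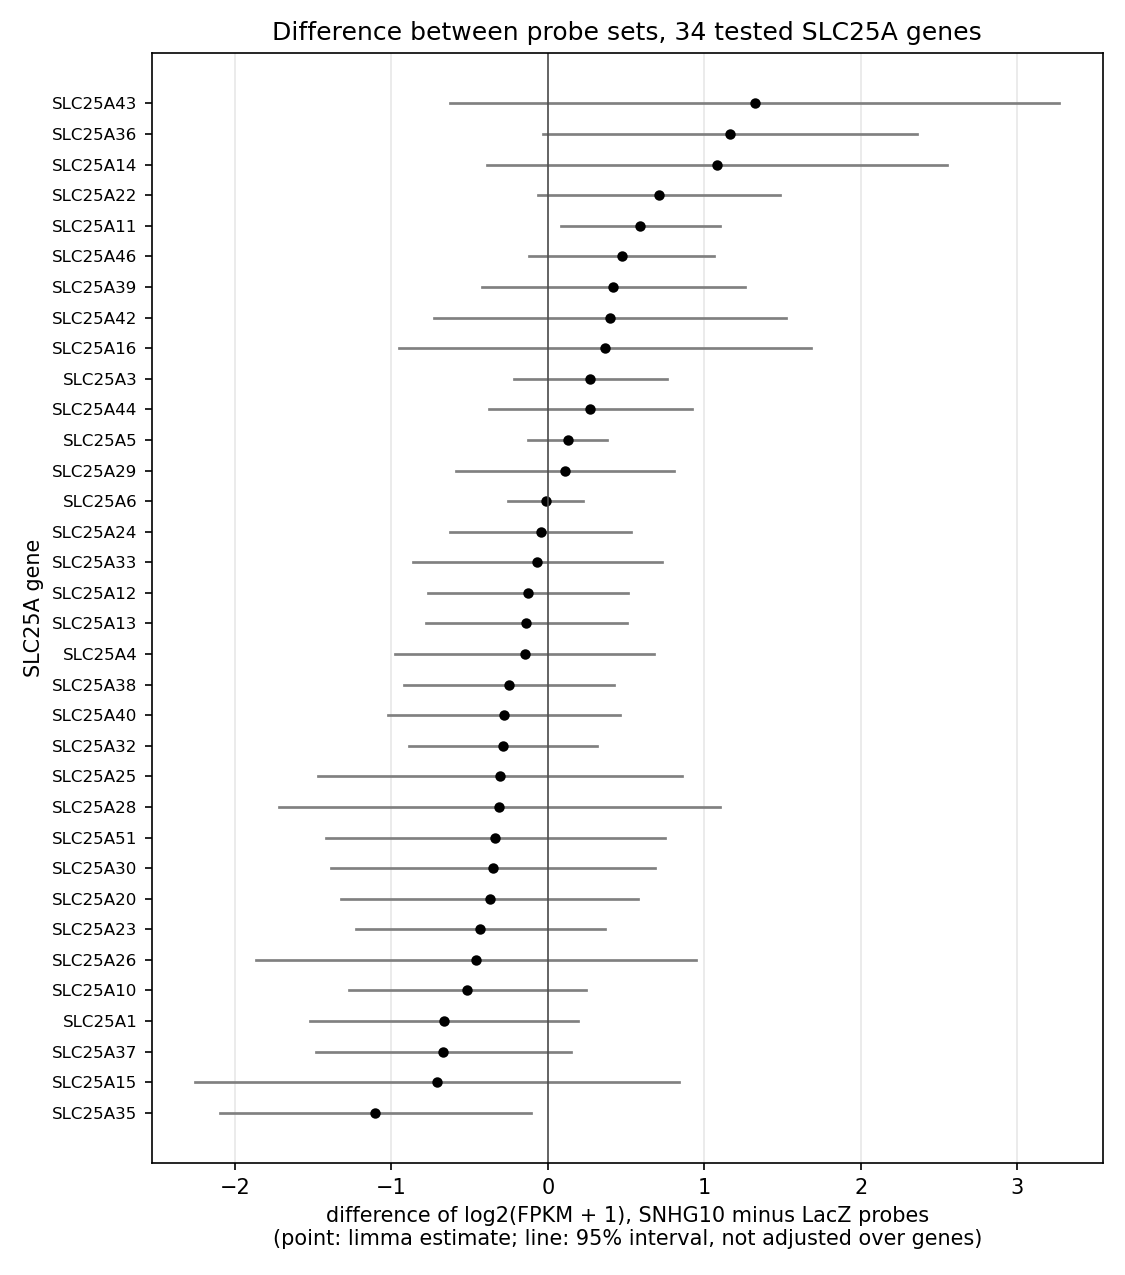
Difference of log2(FPKM + 1) between SNHG10 and LacZ probes for 34 of the 35 tested SLC25A genes, with points for the limma estimate and lines for its 95% interval, not adjusted over genes. Intervals are narrow for SLC25A5 and SLC25A6 and reach from -0.62 to 3.27 for SLC25A43, and only those of SLC25A11 and SLC25A35 lie to one side of 0.

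Listed with the carriers of dicarboxylates and tricarboxylates were 4 members: SLC25A1, SLC25A10, SLC25A11 and SLC25A35. SLC25A11, which exchanges 2-oxoglutarate for malate in the malate-aspartate shuttle, read 18.0, 15.4 and 22.1 FPKM in the SNHG10 set and 12.9, 11.9 and 10.8 in the LacZ set. The lowest SNHG10 library thus lay above the highest LacZ library. The means were 18.5 ± 3.40 and 11.9 ± 1.09 FPKM (SD, n = 3 each), with a two-sided exact permutation p of 0.1 (the smallest that 20 assignments of 6 libraries allow). The difference was 0.59 ± 0.22 (SE), with a limma adjusted p of 0.885 over all genes. It lies on chromosome 17 at 4840425 to 4843546 on the minus strand (hg19), with 1 listed transcript.

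SLC25A35, placed in this class although its substrate is not settled, read 0.775, 1.14 and 0 FPKM in the SNHG10 set and 2.55, 3.16 and 1.55 in the LacZ set. All LacZ libraries lay above all SNHG10 libraries, at a level of a few FPKM at most. This held only for the sum of its 2 listed transcripts, which each overlapped between the sets and were not tested. SLC25A35-202 read 0.775, 0 and 0 FPKM against 2.55, 3.16 and 0. SLC25A35-203 read 0, 1.14 and 0 FPKM against 0, 0 and 1.55. The difference of the gene sum was -1.10 ± 0.43 (SE; limma adjusted p = 0.885; exact permutation p = 0.1). At these low levels it was -2.35 with a pseudocount of 0.1 and -0.40 with a pseudocount of 5. SLC25A1, which exports the citrate from which the cytosol makes lipids, read 16.7, 29.3 and 22.7 FPKM in the SNHG10 set and 34.7, 60.7 and 22.0 in the LacZ set. LacZ replicate 2 was the highest and LacZ replicate 3 lay among the SNHG10 libraries. Its difference was -0.67 ± 0.37 (adjusted p = 0.913 by limma) and was -0.30 without LacZ replicate 2 and -1.01 without LacZ replicate 3. The dicarboxylate carrier SLC25A10 read 5.23, 9.84 and 4.96 FPKM against 12.2, 8.08 and 8.78, also with overlap.

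Among carriers of aspartate and glutamate, SLC25A22 was the highest. This glutamate carrier read 11.9, 23.9 and 19.3 FPKM in the SNHG10 set and 7.31, 10.7 and 14.3 in the LacZ set. LacZ replicate 3 exceeded SNHG10 replicate 1, so the sets overlapped, and the difference was 0.71 ± 0.33 (SE; limma adjusted p = 0.885). SLC25A12 and SLC25A13 are the calcium-regulated aspartate/glutamate exchangers of the malate-aspartate shuttle. SLC25A13, the form of liver, read 5.70, 6.55 and 4.96 FPKM against 6.38, 5.24 and 7.69. SLC25A12, the form of muscle and brain, lay between 3.83 and 5.05 FPKM in all libraries and had a coefficient of variation of 9.14%, not far above those of SLC25A5 and SLC25A6. Their sum was 9.98 ± 0.667 FPKM in the SNHG10 set and 11.2 ± 1.18 in the LacZ set (SD, n = 3 each).

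Of the carriers of other amino acids and of carnitine, SLC25A38, needed for heme synthesis through glycine, read 8.09, 6.18 and 10.6 FPKM in the SNHG10 set and 9.58, 7.96 and 12.4 in the LacZ set. SLC25A44, a carrier of branched-chain amino acids, read 5.62, 8.32 and 7.82 against 5.50, 6.82 and 5.08. Both sets overlapped. SLC25A20, the carnitine/acylcarnitine carrier of fatty acid oxidation, lay between 2.29 and 7.70 FPKM, and SLC25A29, a carrier of basic amino acids, between 3.55 and 5.19. The ornithine carrier SLC25A15 was listed at 0 in SNHG10 replicate 1 and reached 6.08 FPKM in SNHG10 replicate 2. SLC25A45 was listed above 0 only in LacZ replicate 1, at 2.24 FPKM, and was not tested.

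The carriers of cofactors, nucleotides and glutathione were the largest class, with 11 listed members. SLC25A39, the mitochondrial glutathione carrier, read 31.7, 50.6 and 53.5 FPKM in the SNHG10 set and 51.0, 36.1 and 19.0 in the LacZ set, and the sets overlapped. Its relative SLC25A40 lay between 2.12 and 3.92 FPKM. SLC25A32, linked to folate and FAD, read 6.72, 8.41 and 9.70 FPKM against 9.70, 8.86 and 12.4. SLC25A36, a carrier of pyrimidine nucleotides, read 8.79, 4.72 and 13.9 FPKM against 1.39, 6.47 and 3.13. Only LacZ replicate 2 lay within the SNHG10 range, and the difference was 1.17 ± 0.52 (SE; limma adjusted p = 0.885; exact permutation p = 0.2). SLC25A33, the other pyrimidine nucleotide carrier, lay between 1.83 and 3.87 FPKM.

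The NAD carrier SLC25A51 ranged from 3.62 to 13.6 FPKM, and the LacZ libraries alone held both 3.63 and 13.6. SLC25A16 ranged from 2.22 to 10.7 FPKM and the coenzyme A carrier SLC25A42 from 0.467 to 3.54. The S-adenosylmethionine carrier SLC25A26 was listed at 0 in SNHG10 replicate 3 and otherwise ran from 1.07 to 3.91 FPKM. SLC25A17, a peroxisomal member, was listed above 0 only in LacZ replicate 2, at 5.71 FPKM, and was not tested.

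The iron carriers, mitoferrin 1 and mitoferrin 2, were read at similar levels. SLC25A37 (mitoferrin 1, of red cell precursors) read 3.13, 4.37 and 4.02 FPKM in the SNHG10 set and 7.81, 4.03 and 9.07 in the LacZ set. LacZ replicate 2 lay among the SNHG10 libraries, and the difference was -0.67 ± 0.35 (SE; limma adjusted p = 0.907). SLC25A28 (mitoferrin 2, of most tissues) read 7.98, 0.858 and 5.83 FPKM against 6.34, 6.22 and 3.09. SNHG10 replicate 2 stood apart from the other 5 libraries, and without it the difference turned from -0.31 to 0.38.

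SLC25A46 is an outer membrane member that takes part in mitochondrial fusion and fission. It read 11.4, 11.1 and 10.7 FPKM in the SNHG10 set and 7.41, 9.89 and 6.13 in the LacZ set, the third member whose probe sets did not overlap. The means were 11.03 ± 0.374 and 7.81 ± 1.92 FPKM (SD, n = 3 each), with an exact permutation p of 0.1, and the difference was 0.47 ± 0.25 (SE; limma adjusted p = 0.909). Its leading transcript, SLC25A46-201, overlapped between the sets, with 10.7, 5.53 and 6.87 FPKM against 7.41, 7.02 and 5.67 and a difference of 0.14. SLC25A43 read 1.78, 8.74 and 5.49 FPKM against 0, 7.23 and 0.361, so that the LacZ libraries alone ran from 0 to 7.23 FPKM. It lies on chromosome X at 118533023 to 118588441 (hg19), 13921 bases before SLC25A5, and these were the only members within 100000 bases of each other. The uncoupling-protein relative SLC25A14 read 3.22, 0.473 and 5.2 FPKM against 1.80, 0.451 and 0, and SLC25A30 read 2.35, 1.44 and 1.73 against 3.83, 3.83 and 0.974.

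Summed over the family, the share of all FPKM was 0.318%, 0.320% and 0.334% in the SNHG10 set and 0.317%, 0.283% and 0.302% in the LacZ set. The lowest SNHG10 library lay just above the highest LacZ library, and the means differed by 0.0231 percentage points, or by 0.0143 without LacZ replicate 2 and 0.0312 without LacZ replicate 1. Without SLC25A5, SLC25A3 and SLC25A6 the shares overlapped (0.0908% ± 0.0108 and 0.0896% ± 0.0123; SD, n = 3 each). Before division by the library total, the family's summed FPKM overlapped between the sets. The sums were 854, 861 and 912 FPKM in the SNHG10 set and 871, 785 and 821 in the LacZ set. The share is a sum over chosen members and was not tested.

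Single transcripts of a carrier varied more between libraries than their sum. Of members with several listed transcripts and a summed mean of at least 5 FPKM there were 14, with 46 transcripts. In 13 of these 14 genes the transcript of highest mean had a larger coefficient of variation over the 6 libraries than the sum, with medians of 71.0% and 31.9%. Over all 5128 genes chosen in the same way this held for 75.6%, with medians of 42.4% and 27.1%. The same transcript led in every library in 4 of the 14 genes (SLC25A1, SLC25A24, SLC25A46 and SLC25A13) and in 33.0% of all 5128.

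**Figure D3:**
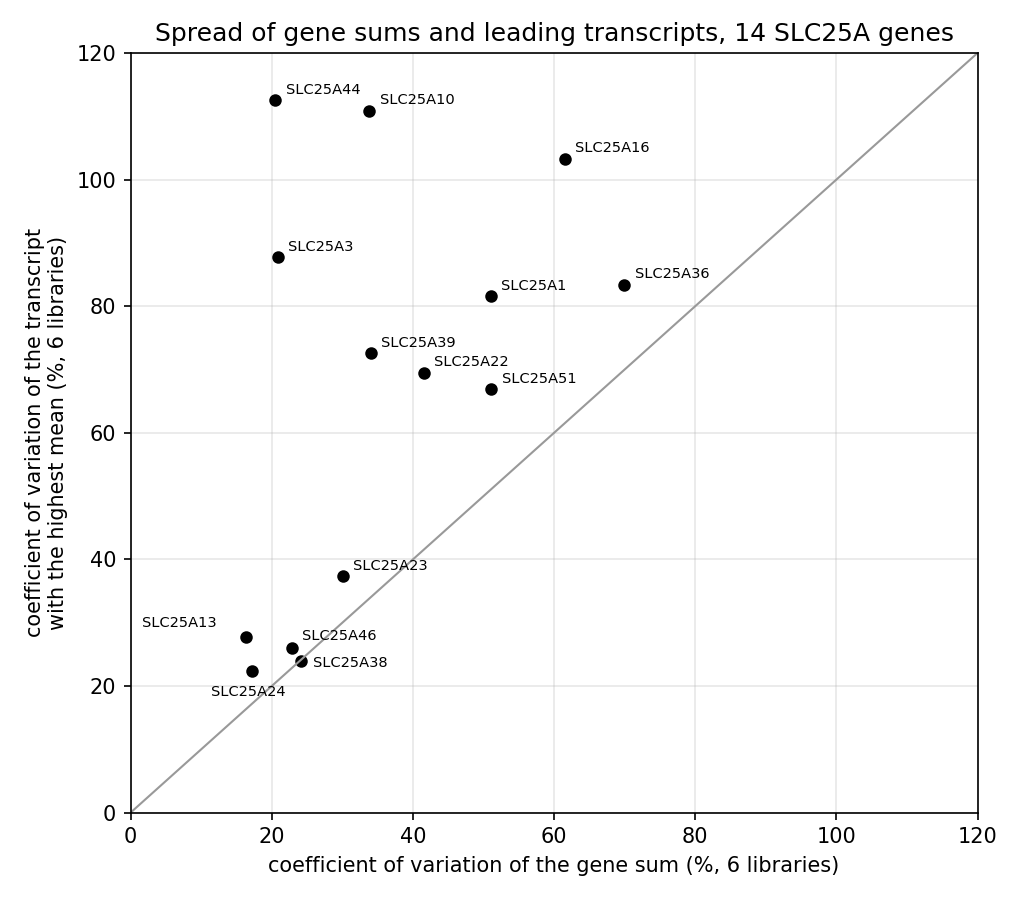
Coefficient of variation over the 6 libraries of the gene sum (horizontal axis, %) and of the transcript with the highest mean (vertical axis, %) for 14 SLC25A genes, with the line of equal values. All genes but SLC25A38 lie above the line, and SLC25A44 and SLC25A10 lie farthest from it.

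The gap was widest for SLC25A44. SLC25A44-201 read 5.62, 8.32 and 0 FPKM in the SNHG10 set and 5.49, 0 and 0 in the LacZ set, while SLC25A44-202 read 0, 0 and 7.82 against 0.0177, 6.82 and 5.08. In each library one of them held nearly all of the sum, which stayed between 5.08 and 8.32 FPKM. The leading transcript of the dicarboxylate carrier also alternated, with SLC25A10-203 leading in 3 libraries and SLC25A10-202 in the other 3. A further listed transcript, SLC25A10-201, led in none. In SNHG10 replicate 3 it read 2.39 FPKM beside 2.56 for SLC25A10-203, so there the sum was shared. For both genes, each of the leading transcripts led in at least 1 library of each probe set.

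SLC25A3 had 10 listed transcripts. SLC25A3-212 read 173, 32.5 and 168 FPKM in the SNHG10 set and 25.6, 0 and 161 in the LacZ set, and led in the 3 libraries with the highest sums (SNHG10 replicates 1 and 3 and LacZ replicate 3). SLC25A3-217 led in SNHG10 replicate 2 (84.3 FPKM) and LacZ replicate 1 (44.2), and SLC25A3-206 in LacZ replicate 2 (64.5). In both probe sets, the gene sum of SLC25A3 was higher where SLC25A3-212 led. This transcript is itself part of the sum and held 67% to 72% of it in those 3 libraries. How reads were assigned to transcripts is not given in the sources used here. Whether the assignment bears on the gene sum was not tested.

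**Figure D4:**
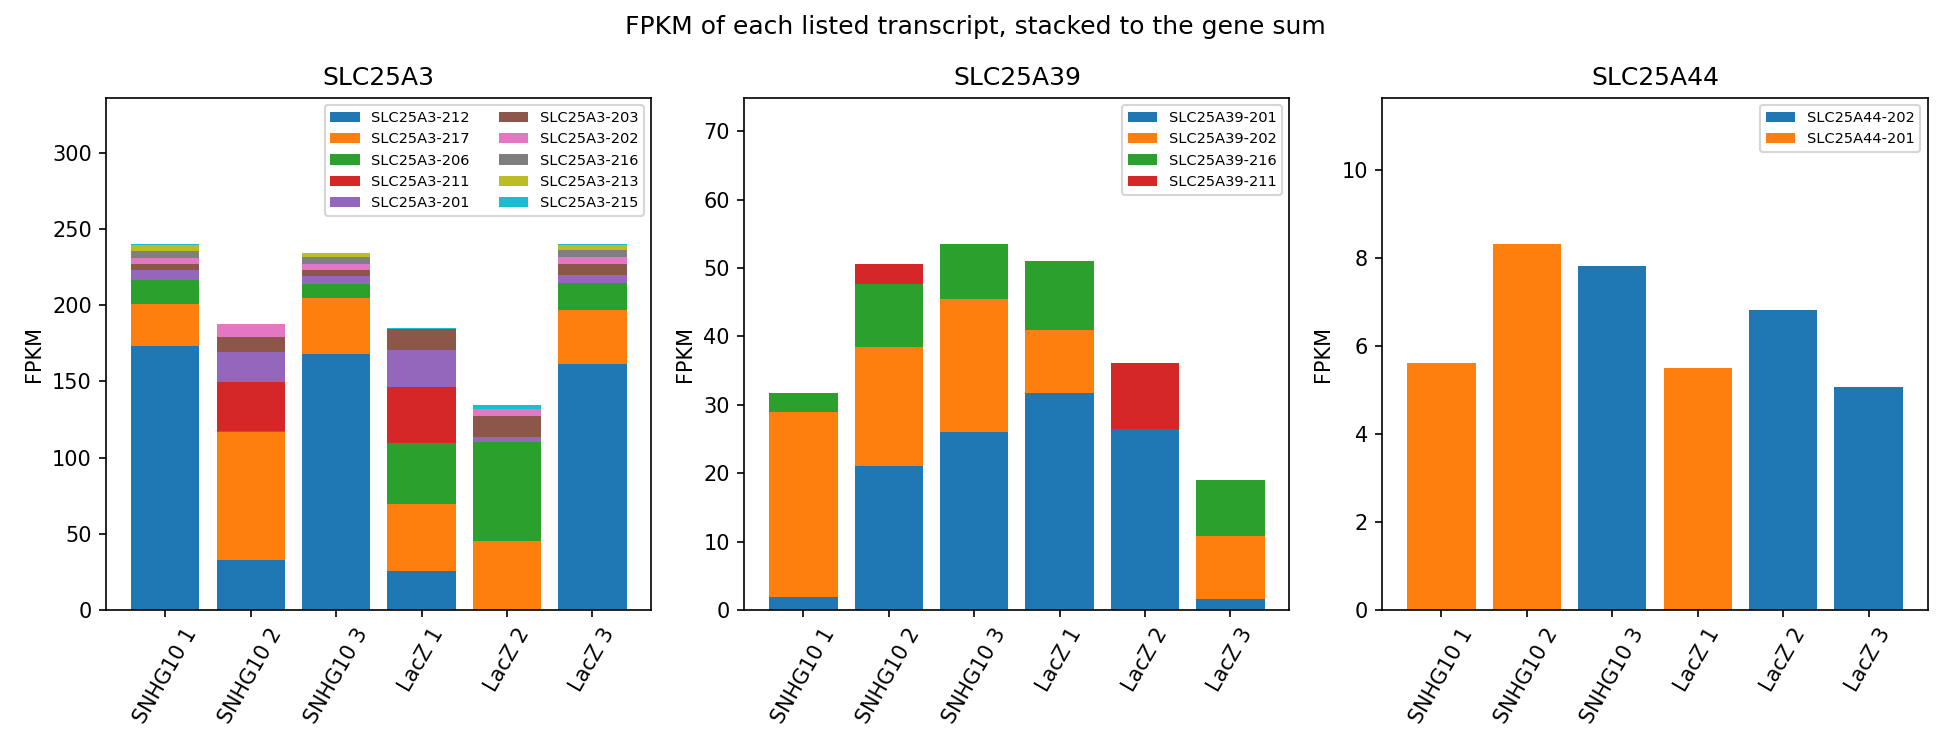
FPKM of each listed transcript of SLC25A3, SLC25A39 and SLC25A44 in each library (SNHG10 or LacZ probes, with the replicate number), stacked so that the bar height is the gene sum. The leading transcript changes between libraries of the same probe set in all 3 genes, while the bars of SLC25A44 stay between 5.08 and 8.32 FPKM.

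No SLC25A transcript passed the threshold either. Of the 78 listed transcripts, 53 were tested among 16618 rows, and 0 passed, against 15 of all rows (0.0903%; 0.0481% higher and 0.0421% lower). The 15 rows became 0 with any 1 of the 6 libraries left out. The smallest adjusted p was 0.818 by limma. At an unadjusted p under 0.05 there were 2, SLC25A3-206 and the single transcript of SLC25A11, beside 5.66% of all rows (2.59% higher and 3.06% lower). Libraries did not overlap in 4 of the 53, against 10.5% of all rows, with 2 higher (4.48%) and 2 lower (6.06%). SLC25A3-206, a short form ending at 98991851, read 15.9, 0.956 and 8.76 FPKM in the SNHG10 set and 39.7, 64.5 and 17.4 in the LacZ set (limma adjusted p = 0.818). SLC25A39-202 read 27.1, 17.4 and 19.6 FPKM against 9.23, 0 and 9.20, a difference of 2.22 (adjusted p = 0.890 by limma), while SLC25A39-201 read 1.86, 21.0 and 26.0 against 31.8, 26.5 and 1.60. SLC25A23-202 read 10.9, 5.19 and 6.20 FPKM against 11.1, 15.3 and 11.4. Its highest SNHG10 library lay just below its lowest LacZ library. SLC25A3-203 read 3.61, 9.67 and 3.59 FPKM against 14.02, 13.4 and 7.002, and SLC25A36-208 read 6.12, 3.40 and 2.11 against 0, 2.38 and 1.14, both with overlap.

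Genes that work beside the carriers gave 0 calls as well. Family members under other symbols (UCP2, MTCH2 and MTCH1) had negative differences in 3 of 3 tested (2 of 3 with median-ratio scaling). Of all 10304 genes tested, 5846 were negative. MTCH1 differed by only -0.016 ± 0.128 (SE). UCP2, an uncoupling protein, read 4.10, 10.2 and 7.22 FPKM in the SNHG10 set and 12.6, 18.1 and 8.55 in the LacZ set, and MTCH2, of the outer membrane, 29.4, 17.2 and 27.5 against 39.7, 27.2 and 19.1. Of 5 channels and pyruvate carrier subunits, 4 were negative (3 with median-ratio scaling). VDAC2, an outer membrane channel, read 54.8, 35.03 and 44.5 FPKM against 78.2, 60 and 53.7, with an unadjusted p of 0.0449 (limma adjusted p = 0.885), and the pyruvate carrier subunit MPC1 4.35, 2.38 and 0 against 4.33, 3.05 and 1.21.

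Of the 4 enzymes of the malate-aspartate shuttle, which work with SLC25A11, SLC25A12 and SLC25A13, 3 were positive and 1 negative. GOT2, the mitochondrial aspartate aminotransferase, read 32.2, 32.3 and 32.0 FPKM in the SNHG10 set and 38.8, 44.2 and 33.2 in the LacZ set, without overlap (limma adjusted p = 0.928). GOT1, the cytosolic counterpart of GOT2, read 23.4, 29.6 and 17.4 against 19.8, 21.7 and 22.2, with overlap. Of 16 genes of the citric acid cycle and of citrate use, 6 had positive and 10 negative differences (under median-ratio scaling, 7 and 9). In 5 of the 16 (31.25%), IDH3A, SUCLG2, OGDH and ACO1 among them, all SNHG10 libraries lay below all LacZ libraries. Over all genes tested this held for 7.21%, and the list was not tested as a set. IDH3A, a subunit of isocitrate dehydrogenase, read 2.92, 2.48 and 2.57 FPKM against 8.91, 4.35 and 5.94 (limma adjusted p = 0.885), and SUCLG2, a subunit of succinyl-CoA synthetase, 18.1, 15.98 and 16.5 against 23.5, 18.7 and 29.8.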

How the data were processed

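FPKM per transcript were deposited by the authors, 1 column for each of 6 libraries (3 with SNHG10 probes, 3 with LacZ probes), per the file headers. The submitters' processing notes name Bowtie2 2.1.0 and the build hg19, and the program that estimated FPKM is not given in the sources used here. Groups and replicate numbers came from the sample titles. FPKM were summed per symbol, and genes (10304) or transcript rows (16618) that reached 1 FPKM in 3 or more libraries were fitted with limma 3.58.1 in R 4.3.3 (eBayes with trend) on log2(FPKM + 1), which understates changes of low genes. Benjamini-Hochberg adjustment ran over all genes or rows, with a threshold of 0.05. Single values had a two-sided exact permutation test (scipy 1.17.1). pandas 2.3.3 was used for tables. The fit was also run on simulated data, and the outcome is not given here. Members and lists were chosen with earlier results of these data known. Genes given by library were the 10 members of highest mean, the 5 per direction with the smallest p, the 2 highest per class, members listed at 0, and the 2 pathway genes per list with the smallest p; SLC25A4 was added as the third ADP/ATP carrier. Of transcripts, those of the 5 smallest p were named, and those of SLC25A44 and SLC25A10 were chosen after their values were seen. Alternatives were other filters, pseudocounts, scalings and eBayes settings, a replicate block, the highest transcript row only, and each library left out. Same-numbered libraries had deviations correlated at 0.0151, 0.0121 and 0.0161, under the 0.1 asked of pairs, and the numbers were taken as labels only. Of 51 SLC25A symbols on the list of members, 14 were not analysed here, and neither was SNHG10 itself. The values of 1 member, which counts and sums include, are not reported here.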

Additional observations from a re-analysis of the deposited data

How the results depend on the processing

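The counts of SLC25A genes and of SLC25A transcript rows past the threshold were 0 in every setting run, including each library left out and the replicate number as a block. With the replicate block the smallest limma adjusted p was 0.886 (genes) and 0.896 (rows). Under the block, 3 members lay under an unadjusted 0.05, beside 562 of all genes tested. They were SLC25A35, SLC25A22 and SLC25A43, but no longer SLC25A11. The smallest limma adjusted p of a member over the gene settings was 0.854, in limma without trend, and over the row settings 0.524, without LacZ replicate 2. Over all rows, the 15 calls became 0 under the block or without any 1 library, and 53 in limma without trend. Alternatives for single genes were run on 22 members, of which 6 turned sign, none past the threshold. SLC25A6 was 0.0466 with median-ratio scaling and 0.0086 when rescaled to the same total, but -0.00897 with scaling by quantiles. SLC25A24 was 0.0101 with median-ratio scaling and 0.0113 by quantiles, but -0.0273 when rescaled to the same total. With the highest transcript row only, SLC25A39 was -0.154, SLC25A38 0.0934 and SLC25A44 -0.818. In each of these genes another row led in some libraries, and whether this turned the signs was not tested. Over leave-one-out runs SLC25A6 ranged from -0.0647 to 0.0347, SLC25A24 from -0.214 to 0.0778 and SLC25A28 from -0.754 to 0.383. The difference in the family's share of the FPKM total fell to 0.0012 percentage points without its 3 highest members, which held most of the sum. Unknown depth limits what members of a few FPKM can show.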
